A study of Mus musculus with 6 samples.

Results

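The 9 genes described here carry the interferon signal and sense viral-type RNA: the RNA sensors Ddx58, Ifih1 and Dhx58, the receptor chains Ifnar1 and Ifngr1, the kinase Jak1, and the transcription factors Stat2, Irf9 and Irf1. They were chosen by name and role, with earlier results of these data known. They are the rows of the deposited expression table that carry these symbols, and all 9 were found among its 36172 genes. Their levels were compared in tumor organoids of 3 Trp53 genotypes. Of the 9 genes, 7 reached 4 rpkm (RPKM, a read count scaled by transcript length and by the mapped reads of the library) in at least 1 library and entered the main test, whereas Ifih1 and Dhx58 stayed below that level in every library.

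RNA sequencing was performed on 6 organoid cultures, 2 for each genotype, grown from small intestinal tumors of C57BL/6 mice of 15 to 20 weeks. Each culture came from a different mouse and was set up independently, and all 3 groups shared an Apc allele truncated at residue 716, with loss of the remaining wild-type allele. The first group was wild-type for Trp53 (+/+). The second was homozygous for the flox allele (flox/flox), in which a stop cassette before the mutant gene had not been removed, so that the allele works as a null. In the third (R270H/R270H) both alleles expressed the missense mutant after tamoxifen had switched on villin-CreER, a recombinase that is active in the intestinal epithelium. With 2 cultures a genotype, the spread between cultures rests on a single difference within each group.

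Interferons are secreted proteins that bind receptors on the cell surface. Type I interferons bind Ifnar1 and Ifnar2, and interferon gamma binds Ifngr1 and Ifngr2. Janus kinases bound to these receptors phosphorylate Stat proteins. A complex that holds Stat2 and Irf9 then binds interferon-stimulated response elements (ISRE), while the interferon gamma signal reaches gamma-activated sites (GAS) and switches on, among others, Irf1. The RNA sensors RIG-I (Ddx58), Mda5 (Ifih1) and Lgp2 (Dhx58) recognise double-stranded RNA in the cytoplasm. Ddx58 and Ifih1 signal through Mavs and the kinase Tbk1 to the factors Irf3 and Irf7, which induce interferon genes, and all 3 sensors are themselves known as interferon-induced genes. In the intestine this system is best known for antiviral defence of the epithelium.

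Because several of these genes are also known targets of the pathway, the promoters of the 9 genes were searched for both motifs, and the stretches around each match are printed to show where it lies. The promoters were those of RefSeq on GRCm38.p6, each with 250 bases before and 50 bases after the start of transcription, and 8 of the 9 genes had one. ISRE was searched as GAAA, 2 bases of any kind and GAAA again, and GAS as TTCNNNGAA, both on either strand. In the lines below, capitals mark the match, and each line reads 5′ to 3′ along the strand of its gene.

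Ddx58: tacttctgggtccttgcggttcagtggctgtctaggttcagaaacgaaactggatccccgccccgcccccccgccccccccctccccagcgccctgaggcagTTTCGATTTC
Stat2: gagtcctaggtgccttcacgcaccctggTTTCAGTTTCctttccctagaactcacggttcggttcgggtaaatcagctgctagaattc
Ifih1: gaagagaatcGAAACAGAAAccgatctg
Irf1: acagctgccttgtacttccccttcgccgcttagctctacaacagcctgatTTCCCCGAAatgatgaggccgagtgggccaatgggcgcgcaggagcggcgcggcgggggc
Ifnar1: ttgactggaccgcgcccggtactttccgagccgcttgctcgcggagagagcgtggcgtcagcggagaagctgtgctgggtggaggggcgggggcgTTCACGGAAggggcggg

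The stretches lie at chr4:40239814-40239925 (minus strand) for Ddx58, chr10:128270248-128270335 (plus strand) for Stat2, chr2:62646206-62646233 (minus strand) for Ifih1, chr11:53769874-53769983 (plus strand) for Irf1 and chr16:91485115-91485226 (plus strand) for Ifnar1. An ISRE match was found in Ddx58 at bases 3 to 12 from the start, in Ifih1 at bases 33 to 42 and in Stat2 at bases -222 to -213, and the Ddx58 and Stat2 matches are on the opposite strand. A GAS match was found in Irf1 at bases -90 to -82 and in Ifnar1 at bases -5 to 4. These positions depend on the annotation. The first 30 transcribed bases of the RefSeq promoters of Ifnar1 and Stat2 were not found in a GENCODE transcript of the gene. The RefSeq span of the Ifnar1 gene begins at 91485032, upstream of the stretch printed. Neither set of letters was present in the windows of Jak1, Ifngr1, either of the 2 promoters of Irf9, or the second promoter of Irf1. Of all 32851 promoters of the same length, 3.44% held the ISRE letters and 8.3% the GAS letters. A match is a description of the sequence and not evidence of binding.

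The libraries matched their labels at the targeted gene. Trp53 read 75.9 and 74.3 rpkm in +/+, 1.73 and 2.48 rpkm in flox/flox and 72.8 and 82.7 rpkm in R270H/R270H organoids, so that it was low in both flox/flox libraries alone (log2 fold change -4.63, adjusted p = 0.00124, limma, flox/flox against +/+). The depth, estimated from the steps in the values of short genes, lay between 44.2 and 48.5 M reads a library, and the highest estimate, that of flox/flox replicate 1, rested on 6 genes. The lowest value in the table is 1 rpkm, and all 6 libraries were at this floor for 23760 genes. The 2 flox/flox libraries stood apart from each other, and which of them carries the shift described next was not tested. Flox/flox replicate 1 differed from replicate 2 by a median SD of 0.247 on the log2 scale, against 0.046 between the +/+ and 0.062 between the R270H/R270H libraries, and the gap followed transcript length. Relative to replicate 2, its values were higher by a median of 0.57 (log2) for transcripts up to 1000 bases and differed by -0.59 for those over 6000 bases, whereas the medians of the same length classes stayed within -0.15 to 0.07 for the other 2 genotypes. All 8 epithelial marker genes were above the floor, with summed levels of 2713 to 2752 rpkm in +/+, 4023 to 4305 in flox/flox and 2253 to 2401 in R270H/R270H organoids. Of 11 immune marker genes 10, Ptprc among them, were at the floor in every library, and the other, Cd68, read 10.2 and 9.87 rpkm in +/+, 2.06 and 11.1 in flox/flox and 2.22 and 2.41 in R270H/R270H organoids. Of 4 endothelial marker genes 3 were at the floor throughout, and Cdh5 read 8.88 and 9.35 rpkm in +/+, 1 and 3.30 in flox/flox and 1.04 and 1 in R270H/R270H organoids. The 8 fibroblast marker genes summed to 20.6 rpkm in flox/flox replicate 2, where Acta2 read 11.5 rpkm, and to 8 to 8.59 rpkm, close to their floor, in the other 5 libraries. The part of these differences in the results below was not tested.

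**Figure D1:**
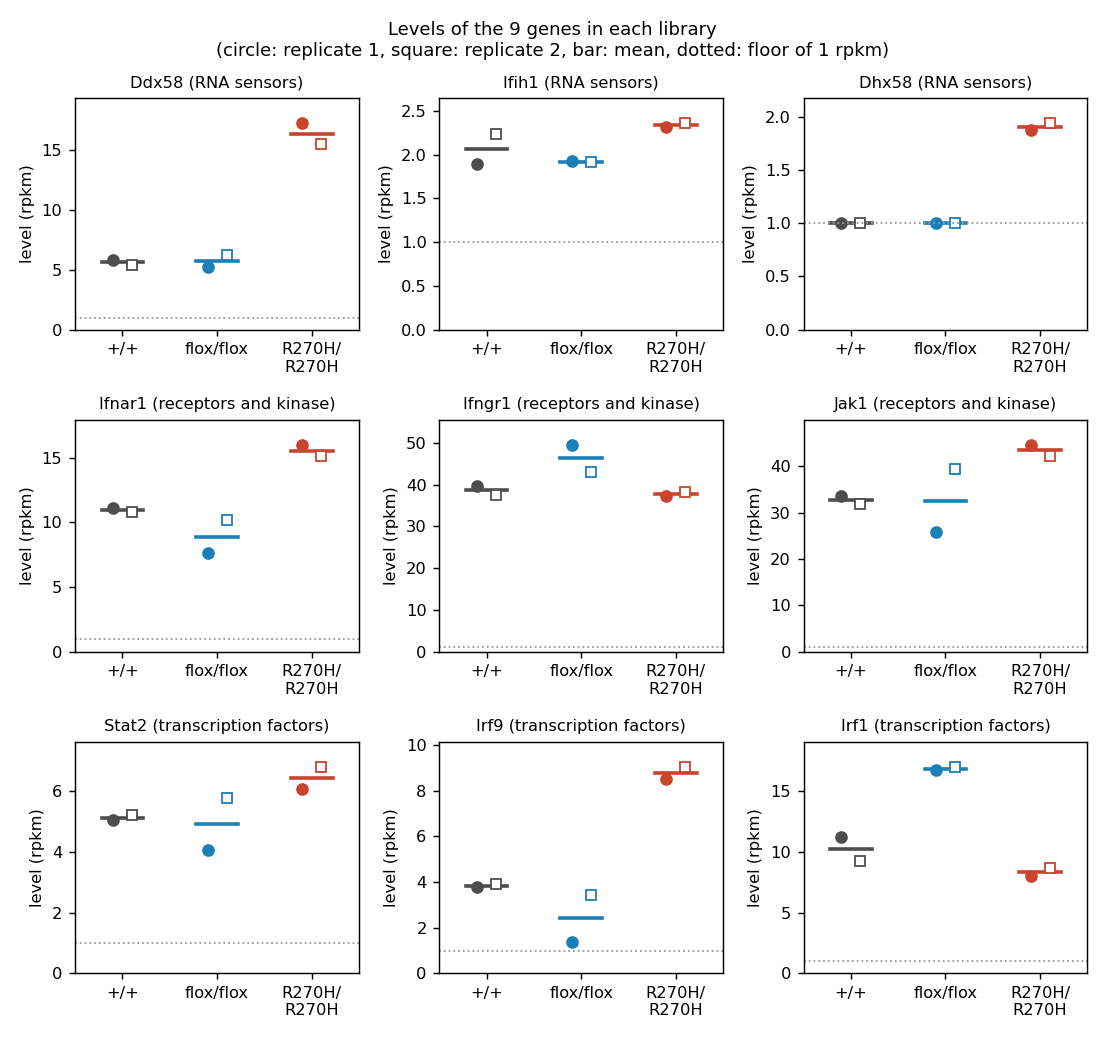
Level of each of the 9 genes in rpkm (vertical axes, each from 0) in the organoids of the 3 Trp53 genotypes (horizontal axes), with a circle for replicate 1, an open square for replicate 2, a bar at the mean of the 2 libraries and a dotted line at the floor of 1 rpkm. The R270H/R270H libraries lie above the other 4 for 7 of the 9 genes, Irf1 is highest in both flox/flox libraries, and Dhx58 leaves the floor in the R270H/R270H libraries alone.

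Both R270H/R270H libraries were above the other 4 libraries for 7 of the 9 genes: Ddx58, Ifih1, Dhx58, Ifnar1, Jak1, Stat2 and Irf9. The same held for 27.2% of the 12412 genes above 1 rpkm in some library. Among the 7 genes that entered the main test it held for 5, against 26.5% of the 10042 genes tested. Dhx58 was above 1 rpkm, and Irf9 at 4 rpkm or more, only in the R270H/R270H libraries. Their place in these counts was therefore fixed by how they entered. Irf1 went the other way, with both R270H/R270H libraries below the other 4, as 18.7% of the genes tested did. Ifngr1 was the only one of the 9 whose R270H/R270H libraries (37.3 and 38.2 rpkm) overlapped with those of another genotype, +/+ (39.7 and 37.5 rpkm).

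Only Ddx58 was called at an adjusted p under 0.05 in R270H/R270H against +/+ organoids, where it was higher. In the same comparison 5.86% of all genes tested were called higher and 6.36% lower. The median log2 fold change of the 7 genes was 0.40, and that of all genes tested was 0.03. In flox/flox against +/+ organoids the one gene called was Irf1, which was higher (4.38% of all genes called higher and 6.9% lower), with medians of -0.03 over the 7 genes and -0.02 over all genes. In R270H/R270H against flox/flox organoids Ddx58, Ifnar1 and Irf9 were called higher, against 13.6% of all genes, and Irf1 lower, against 11%, with medians of 0.44 and 0.03. Irf9 reached the minimum of 4 rpkm only in R270H/R270H organoids, so its place among the 7 depends on the level there. The comparisons share libraries pairwise and are therefore not independent of each other.

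These calls depended on which libraries entered the fit, since all 3 genotypes share an estimate of the spread, which includes the gap between the 2 flox/flox libraries. Fitted with +/+ and R270H/R270H libraries alone, 5 of the 7 genes were called higher in R270H/R270H against +/+ organoids (Ddx58, Irf9, Ifnar1, Jak1 and Stat2), while 31.2% of all genes were. The same 5 were called when either flox/flox library was left out. Conversely, without any 1 of the +/+ or R270H/R270H libraries no member was called by limma in this comparison, and 1 of the 7 had an unadjusted p under 0.05. Few or no genes of the whole table were then called: 0% without either +/+ library and without R270H/R270H replicate 1, and 1.13% without R270H/R270H replicate 2. The call of Irf1 in flox/flox against +/+ organoids was likewise lost without any 1 of these 4 libraries, where 0.0797%, 0.0996%, 0.368% and 0.368% of all genes were called. In R270H/R270H against flox/flox organoids only Ddx58 was called without either +/+ library (3.74% and 3.74% of all genes) and no member without R270H/R270H replicate 1 or 2 (1.65% and 2.67%), although 4 of the 7 had an unadjusted p under 0.05 in both. Values without each flox/flox library stand with the genes below.

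**Figure D2:**
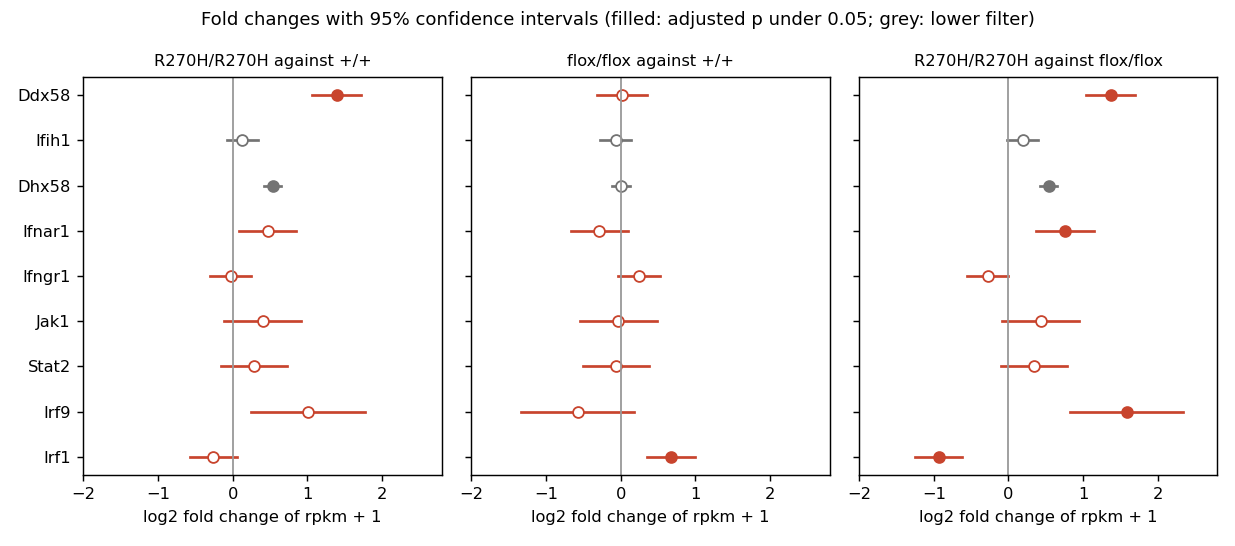
Log2 fold change of rpkm + 1 (horizontal axes) with its 95% confidence interval for each of the 9 genes (rows) in the 3 comparisons (panels), fitted with limma. Filled points passed an adjusted p of 0.05, and grey marks Ifih1 and Dhx58, which were fitted with the filter lowered to above 1 rpkm. The Ddx58 interval lies above 0 against both other genotypes, and the intervals of Stat2 and Jak1 include 0 throughout.

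Ddx58 encodes RIG-I, which recognises short double-stranded RNA with a 5′ triphosphate. Ddx58 is on chromosome 4 from 40203777 to 40239825 (GRCm38). It read 5.80 and 5.45 rpkm in +/+, 5.24 and 6.25 in flox/flox and 17.3 and 15.5 in R270H/R270H organoids. Both R270H/R270H libraries were far above the other 4, which overlapped each other. The mean of 16.4 ± 1.27 rpkm (SD, n = 2) was 2.91-fold that of +/+ (5.63 ± 0.246) and 2.85-fold that of flox/flox organoids (5.75 ± 0.717). In RNA from whole cultures, more transcript per cell and more cells that express the gene cannot be told apart, here and for the genes that follow. The log2 fold change was 1.39 ± 0.13 (SE; adjusted p = 0.00594, limma) against +/+ and 1.37 ± 0.13 (adjusted p = 0.00515) against flox/flox organoids. Between flox/flox and +/+ organoids it was 0.02, with a 95% confidence interval from -0.31 to 0.35 (adjusted p = 0.918). Over the 15 alternative settings the fold change against +/+ stayed between 1.31 and 1.52 on the log2 scale, with adjusted p from 1.1e-05 to 0.107. Among the 9 genes this was the one whose rise was called against both other genotypes in the main test. Its ISRE match begins 3 bases into the transcript, as printed above.

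Ifih1 encodes Mda5, which recognises long double-stranded RNA. It lies on chromosome 2 from 62595618 to 62646255 and read 1.89 and 2.23 rpkm in +/+, 1.93 and 1.91 in flox/flox and 2.31 and 2.36 in R270H/R270H organoids. Both R270H/R270H values were the highest, but by a narrow margin over +/+ replicate 2. With the filter lowered to above 1 rpkm, the log2 fold change was 0.13 against +/+ (adjusted p = 0.335) and 0.19 against flox/flox organoids (adjusted p = 0.141), neither past the threshold. The 95% confidence intervals ran from -0.08 to 0.34 and from -0.02 to 0.40 on the scale of log2(rpkm + 1), which understates the change of a gene so near the floor. Ifih1, like Ddx58, has an ISRE match close to the start of its transcript. The difference between the changes of the 2 genes was not tested.

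Dhx58 encodes Lgp2, which lacks the signalling domains of the other sensors and modulates them. The gene spans bases 100694884 to 100704271 of chromosome 11. It stood at the floor of 1 rpkm in all +/+ and flox/flox libraries and read 1.87 and 1.94 rpkm in the R270H/R270H libraries. It was thus above the floor in R270H/R270H organoids alone. Because the true level under the floor is unknown, the mean was at least 1.90-fold higher than in either other genotype. With the lower filter the fitted log2 fold change was 0.54 ± 0.04 against +/+ (adjusted p = 0.00414, where 8.37% of 12412 genes were called higher) and the same against flox/flox organoids (adjusted p = 0.00378, 15.4% called higher). The gene enters that fit only through the R270H/R270H libraries, and its fold depends on the floor. The estimated 199 to 212 reads behind the R270H/R270H values carry a counting error of up to 7.08%. The antisense gene Dhx58os overlaps 2637 bases of Dhx58, and the use of strand in the counting was not given in the sources used here, so reads from the 2 genes cannot be told apart.

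Ifnar1 encodes a chain of the type I interferon receptor that is needed for signalling. It spans bases 91485032 to 91510523 of chromosome 16. The values were 11.1 and 10.8 rpkm in +/+, 7.59 and 10.2 in flox/flox and 16 and 15.1 in R270H/R270H organoids. The 3 genotypes did not overlap: R270H/R270H was highest and flox/flox lowest, with a wide gap between the 2 flox/flox libraries. Ifnar1 was higher in R270H/R270H than in flox/flox organoids (log2 fold change 0.76 ± 0.15, adjusted p = 0.0267). Against +/+ organoids the difference of 0.47 ± 0.15 missed the threshold (adjusted p = 0.107), and it passed in the fit of these 2 genotypes alone (adjusted p = 0.00392, range over all alternatives 0.000782 to 0.45). Flox/flox and +/+ organoids differed by -0.29 ± 0.15, which did not pass (adjusted p = 0.234). Without flox/flox replicate 1 the difference between R270H/R270H and flox/flox organoids was 0.57, and without replicate 2 it was 0.95.

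Ifngr1 encodes the ligand-binding chain of the interferon gamma receptor and lies on chromosome 10 from 19591949 to 19610229. It was among the 2 most abundant of the 9 genes in every library, at 39.7 and 37.5 rpkm in +/+, 49.5 and 43.0 in flox/flox and 37.3 and 38.2 in R270H/R270H organoids. The flox/flox libraries were the highest, and the others overlapped. The log2 fold change between R270H/R270H and +/+ organoids was -0.03, with a 95% confidence interval from -0.31 to 0.25. Flox/flox organoids differed from +/+ by 0.25 (adjusted p = 0.171) and R270H/R270H from flox/flox organoids by -0.28 (adjusted p = 0.114), and neither difference passed. Of the 4 partner chains on the fixed list, Ifnlr1 was not found by this symbol. The 3 found, Ifnar2, Ifngr2 and Il10rb, were not called in any comparison either. Of these 3, 1 had an unadjusted p under 0.05 (limma), in R270H/R270H against +/+ organoids. Ifnar2 read 4.83 and 4.68 rpkm in +/+, 3.71 and 4.11 in flox/flox and 4.05 and 4.18 in R270H/R270H organoids, so both R270H/R270H libraries lay below both +/+ libraries, the opposite order to Ifnar1. Ifngr2 read 60.6 and 58.3 rpkm in +/+, 60.6 and 60.2 in flox/flox and 71.8 and 69.4 in R270H/R270H organoids. Both R270H/R270H libraries were above the other 4, and the log2 fold change of 0.24 over +/+ did not pass (adjusted p = 0.139).

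Jak1 encodes the Janus kinase that serves both receptors. Its locus is on chromosome 4 from 101151974 to 101265282. It read 33.5 and 31.8 rpkm in +/+, 25.8 and 39.3 in flox/flox and 44.6 and 42.2 in R270H/R270H organoids. R270H/R270H libraries were the highest, while the 2 flox/flox libraries spanned the +/+ values on both sides. The log2 fold change of R270H/R270H was 0.40 ± 0.20 against +/+ (adjusted p = 0.247) and 0.44 ± 0.20 against flox/flox organoids (adjusted p = 0.165), and neither passed. In the fit of +/+ and R270H/R270H libraries alone the first passed (adjusted p = 0.00452, range over all alternatives 0.00202 to 0.871). The direction of flox/flox against +/+ turned with the library used. It was higher by 0.26 without flox/flox replicate 1 (adjusted p = 0.0393, range over all alternatives 0.0117 to 1) and lower, at -0.33, without replicate 2 (adjusted p = 0.0117), and both passed the threshold. Flox/flox replicate 1 differed from replicate 2 by -0.59 for Jak1, whose longest coding transcript has 4906 bases, and the median of all genes of 4000 to 6000 bases was -0.26.

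**Figure D3:**
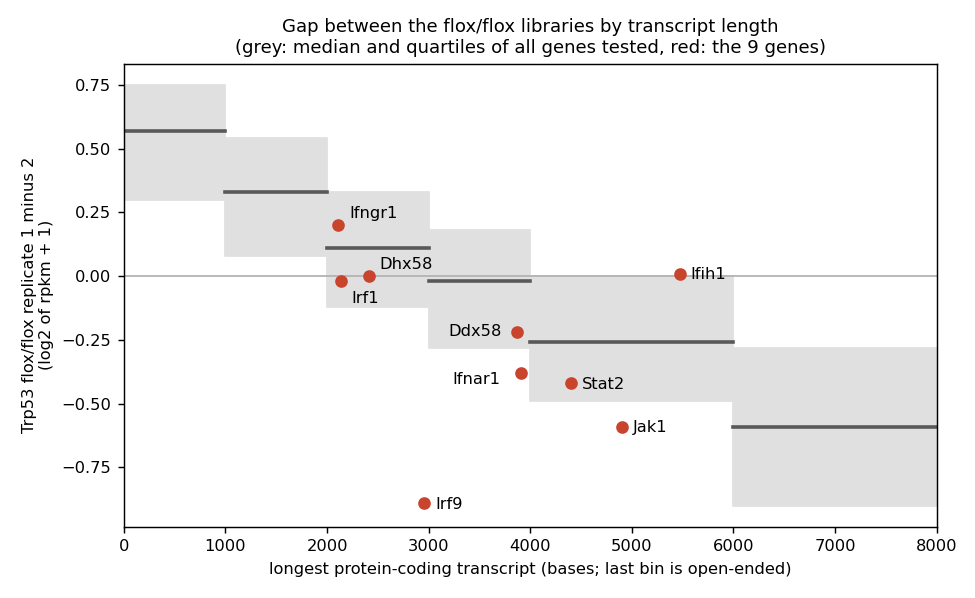
Difference between flox/flox replicate 1 and replicate 2 (vertical axis, log2 of rpkm + 1) against the length of the longest protein-coding transcript (horizontal axis, bases). Grey boxes and lines give the quartiles and median of all genes tested in each length class, and red points are the 9 genes. Irf9, Jak1, Stat2, Ifnar1 and Ddx58 were lower in replicate 1, Ifngr1 was higher, and Irf1, Ifih1 and Dhx58 lay near 0.

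Stat2 encodes the Stat protein of the type I response, which joins Irf9. It lies on chromosome 10 from 128270498 to 128292853 and read 5.04 and 5.20 rpkm in +/+, 4.07 and 5.77 in flox/flox and 6.08 and 6.80 in R270H/R270H organoids. The R270H/R270H libraries were again the highest, and the nearest value was that of flox/flox replicate 2. The log2 fold change was 0.28 ± 0.17 against +/+ (adjusted p = 0.33) and 0.34 ± 0.17 against flox/flox organoids (adjusted p = 0.189). Neither passed in the main test. Fitted without flox/flox libraries, the first passed (adjusted p = 0.0323, range over all alternatives 0.0194 to 0.968).

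Irf9 encodes the DNA-binding subunit of the Stat2-Irf9 complex. It lies on chromosome 14 from 55603985 to 55610030, and 123 bases of it are shared, on the same strand, with Rnf31, so reads there are uncertain. It read 3.77 and 3.92 rpkm in +/+, 1.39 and 3.42 in flox/flox and 8.5 and 9.04 in R270H/R270H organoids. Both R270H/R270H libraries were far above the other 4, and flox/flox replicate 1 was the lowest by a wide margin. The mean of 8.77 ± 0.378 rpkm was 2.28-fold that of +/+ (3.84 ± 0.107) and 3.64-fold that of flox/flox organoids (2.41 ± 1.44). The rise over flox/flox organoids passed (log2 fold change 1.59, adjusted p = 0.0231). That over +/+ organoids, 1.01 ± 0.30, missed the threshold in the fit of all 6 libraries (adjusted p = 0.0882). With +/+ and R270H/R270H libraries alone it passed (adjusted p = 0.000665, range over all alternatives 0.000117 to 0.376). Flox/flox against +/+ gave -0.57 (adjusted p = 0.23). The fold change over flox/flox organoids was 1.14 without flox/flox replicate 1 and 2.03 without replicate 2, and it passed in both. Irf9 varied most of the 7 genes tested over the 6 libraries (SD 0.77 on the log2 scale), followed by Ddx58 (0.72), and Ifngr1 varied least (0.15).

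Irf1 encodes a transcription factor induced by interferon gamma that drives antigen-presentation and guanylate-binding protein genes. The locus is on chromosome 11 from 53770014 to 53778374. It read 11.2 and 9.27 rpkm in +/+, 16.7 and 17.0 in flox/flox and 8.05 and 8.67 in R270H/R270H organoids. The 3 genotypes did not overlap, and flox/flox was highest, in both libraries alike. The flox/flox mean of 16.8 ± 0.149 rpkm was 1.65-fold that of +/+ organoids (10.2 ± 1.33), which passed (log2 fold change 0.68 ± 0.12, adjusted p = 0.0344). R270H/R270H organoids (8.36 ± 0.439) were lower than flox/flox organoids by -0.93 (adjusted p = 0.0111). The difference from +/+, -0.26, did not pass (adjusted p = 0.228). Unlike Irf9, Irf1 gave nearly the same fold over +/+ without either flox/flox library (0.68 and 0.67), but its call was lost in 8 of the 15 alternatives (adjusted p from 0.00789 to 0.298). The summed epithelial markers were highest in flox/flox organoids too (4023 to 4305 rpkm), and their part in the Irf1 difference was not tested. The gene Gm17334 overlaps 907 bases of Irf1 on the opposite strand, and the caution given for Dhx58 holds here too.

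Since rpkm values are scaled by transcript length, the levels of the 9 genes can also be ordered within a genotype. In +/+ organoids the order was Ifngr1, Jak1, Ifnar1 and Irf1, Ddx58, Stat2, Irf9, Ifih1 and Dhx58, from 38.6 rpkm down to the floor. Ifnar1 and Irf1 overlapped, and the other neighbours did not. In R270H/R270H organoids Jak1 came before Ifngr1, and Ddx58 stood level with Ifnar1 and above both Irf1 and Irf9, where Ddx58 overlapped with Ifnar1 and Irf9 with Irf1. In flox/flox organoids Irf1 came after Ifngr1 and Jak1 and ahead of Ifnar1, and the pairs Ddx58 with Stat2 and Irf9 with Ifih1 overlapped.

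The remaining genes of the pathway were taken from 8 lists arranged by role, with 94 genes in all, of which 91 were in the table and 54 entered the main test. The lists were written with the study and earlier results of these libraries known, so their direction is not independent evidence. In R270H/R270H against +/+ organoids 8 of the 54 were called higher and 1 lower, with a median log2 fold change of 0.17. The counts were 3 and 1 in flox/flox against +/+ (median -0.02) and 13 and 4 in R270H/R270H against flox/flox organoids (median 0.22). The shares of all genes called were those given above. Without any 1 +/+ library or R270H/R270H replicate 1, none of the 54 was called in R270H/R270H against +/+ organoids by limma, although 10 had an unadjusted p under 0.05, and 1 was called without R270H/R270H replicate 2. With either flox/flox library left out 30 of the 54 were called, where 57.1% of all genes were. In flox/flox against +/+ organoids the count was 0 without any 1 of the +/+ or R270H/R270H libraries (5 to 12 with an unadjusted p under 0.05), 18 without flox/flox replicate 1 (40.4% of all genes called) and 32 without replicate 2 (68.5%), and in R270H/R270H against flox/flox organoids it was 2 without any 1 of those 4 libraries, 29 without flox/flox replicate 1 (53% of all genes called) and 38 without replicate 2 (72.3%).

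**Figure D4:**
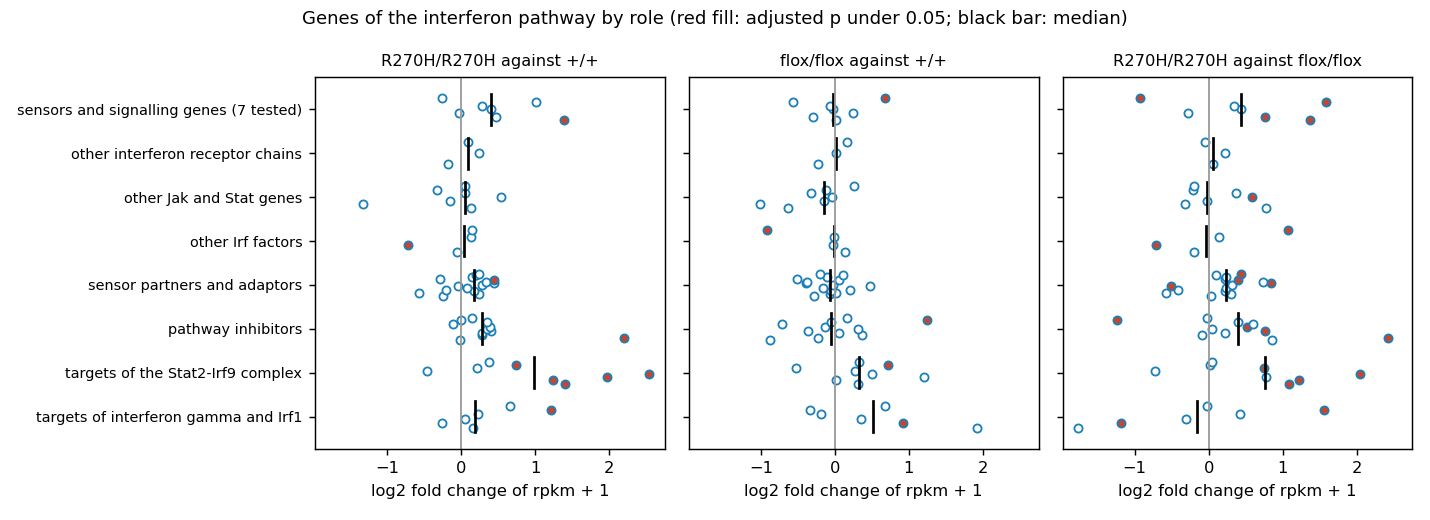
Log2 fold change of rpkm + 1 (horizontal axes) for each tested gene of the interferon pathway, with 1 row for each role and 1 panel for each comparison. Red fill marks an adjusted p under 0.05 in limma and the black bar is the median of the row. In R270H/R270H against +/+ organoids 5 of the 8 tested targets of the Stat2-Irf9 complex were called higher, against 5.86% of all genes tested, and 4 of these 5 entered the test only through libraries in which they were high.

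Of 10 interferon genes on the list 8 were in the table. These 8 stood at the floor in every library, which leaves levels below 1 rpkm unmeasured. Ifnl2 and Ifnl3, which encode type III interferons, were not found by these symbols, so nothing can be said of them. Among the other Jak and Stat genes, none of the 7 tested was called against +/+ organoids, where 2 had an unadjusted p under 0.05 in R270H/R270H and 1 in flox/flox organoids. Tyk2, the kinase bound to Ifnar1, differed by -0.15 between R270H/R270H and +/+ organoids (adjusted p = 0.494). Jak2 differed by 0.14 (adjusted p = 0.817) and Stat3 by 0.05 (adjusted p = 0.947). For Stat3 flox/flox replicate 1 read 13.1 rpkm and the other 5 libraries between 23.8 and 29.3 rpkm.

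The Irf factors that act downstream of the sensors took different courses. Irf3, which is present before infection and is activated by Tbk1, read 17.7 and 17.0 rpkm in +/+, 16.3 and 17.9 in flox/flox and 8.76 and 11.6 in R270H/R270H organoids. It fell in R270H/R270H against both other genotypes (-0.72, adjusted p = 0.0431, and -0.71, adjusted p = 0.0313). Irf7, which is itself induced by interferon, read 4.23 and 4.83 rpkm in +/+, 2.12 and 1.74 in flox/flox and 4.37 and 6.04 in R270H/R270H organoids. Both flox/flox libraries were the lowest. It was lower in flox/flox than in +/+ (-0.92, adjusted p = 0.0409) and higher in R270H/R270H than in flox/flox organoids (1.07, adjusted p = 0.0195), whereas R270H/R270H and +/+ organoids differed by 0.15 (adjusted p = 0.617).

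Of 15 tested sensor partners and adaptors, Tbk1 alone was called against +/+ organoids, in R270H/R270H. In flox/flox organoids none was called by limma, with an unadjusted p under 0.05 for 1. It read 16.3 and 15.5 rpkm in +/+, 16.5 in both flox/flox libraries and 22.8 and 21.4 in R270H/R270H organoids. The R270H/R270H libraries stood apart from the other 4, by 0.45 against +/+ (adjusted p = 0.0438) and 0.40 against flox/flox organoids (adjusted p = 0.0397). Eif2ak2, the RNA-activated kinase PKR, and Azi2, a Tbk1 adaptor, were also higher in R270H/R270H than in flox/flox organoids (0.84, adjusted p = 0.0488, and 0.44, adjusted p = 0.046). Tlr3, the endosomal receptor for double-stranded RNA, was lower (-0.51, adjusted p = 0.0307). Mavs, the adaptor of Ddx58 and Ifih1, was not called in any comparison and differed by -0.25 between R270H/R270H and +/+ organoids (adjusted p = 0.265).

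Among 11 tested inhibitors Usp18 showed the largest change. Usp18 removes Isg15 from proteins and blocks signalling at the type I receptor. It read 1.14 and 1.55 rpkm in +/+, 1 and 1 (the floor) in flox/flox and 11 and 8.67 in R270H/R270H organoids. The R270H/R270H libraries were far above the other 4, and the log2 fold change over +/+ was 2.20 (adjusted p = 0.00441). Usp18 passed the filter only through R270H/R270H libraries. The phosphatase Ptpn6 and the Stat inhibitor Pias1 were higher in R270H/R270H than in flox/flox organoids (0.76, adjusted p = 0.0144, and 0.52, adjusted p = 0.0247). Irf2bp1, a corepressor of Irf2, was higher in flox/flox than in +/+ (1.24, adjusted p = 0.0274) and lower in R270H/R270H than in flox/flox organoids (-1.24, adjusted p = 0.0168). Socs1 stood at the floor in every library.

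Of 20 known targets of the Stat2-Irf9 complex 6 were at the floor in every library and 8 entered the main test. In R270H/R270H against +/+ organoids Isg15 (a ubiquitin-like modifier, 1.40), Ifit1 and Ifit2 (which bind viral RNA, 1.24 and 1.97), Oas1a (which makes the activator of RNase L, 2.54) and Parp9 (an ADP-ribosylation factor, 0.74) were called higher, with adjusted p from 0.0171 to 0.0241. Isg15, Ifit1, Ifit2 and Oas1a passed the filter only through samples in which they were high. Oas1a has close paralogs whose reads may be shared with it. Isg15 read 1 and 1.42 rpkm in +/+, 1.36 and 2.18 in flox/flox and 4.98 and 4.68 in R270H/R270H organoids. Both R270H/R270H libraries were above all others, at a low level. Parp9 was also called higher in flox/flox than in +/+ organoids (0.72, adjusted p = 0.0295). Isg15, Ifit1, Oas1a and Ifi35 were higher in R270H/R270H than in flox/flox organoids.

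Of 16 targets of interferon gamma and Irf1, 6 were at the floor throughout and 6 were tested. Igtp, an interferon-induced GTPase, read 1.61 and 1.47 rpkm in +/+, 1 and 1 in flox/flox and 5.25 and 4.58 in R270H/R270H organoids. It was higher in R270H/R270H organoids against +/+ (1.22, adjusted p = 0.0119) and flox/flox (1.56, adjusted p = 0.00504), but it passed the filter only through the R270H/R270H libraries. Psmb10, an immunoproteasome subunit, read 10.2 and 8.60 rpkm in +/+, 19.7 and 17.6 in flox/flox and 6.32 and 9.26 in R270H/R270H organoids, with both flox/flox libraries the highest. It was higher in flox/flox than in +/+ (0.92, adjusted p = 0.0456) and lower in R270H/R270H than in flox/flox organoids (-1.18, adjusted p = 0.0179). These are also the directions of Irf1. The relation of Psmb10 to Irf1 was not tested.

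The calls in R270H/R270H against flox/flox organoids were checked without each flox/flox library. Without replicate 1 the same 4 genes were called, Ddx58 (1.26, adjusted p = 0.00122), Ifnar1 (adjusted p = 0.00483) and Irf9 (adjusted p = 0.00101) higher and Irf1 (-0.94, adjusted p = 0.00481) lower, where 29.1% of all genes were called higher and 23.9% lower. Without replicate 2 all 7 tested genes were called, 5 higher and 2 lower (38.5% and 33.8% of all genes), since Jak1, Stat2 and Ifngr1 then passed as well. With only these 2 genotypes in the fit Ddx58 alone was called (adjusted p = 0.0374, 2.56% of all genes called higher). In flox/flox against +/+ organoids Irf1 and Jak1 were called higher without replicate 1 (19.1% of all genes called higher). Without replicate 2 Irf1 and Ifngr1 were called higher and Ifnar1, Irf9 and Jak1 lower (31.6% and 36.9% of all genes).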

How the data were processed

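RNA from 6 organoid cultures was sequenced on stranded libraries. The deposited rpkm values were calculated by the authors in StrandNGS from reads mapped to mm10. The StrandNGS version, its annotation, filters and use of strand are not given in the sources used here. No rpkm value in the deposited table is below 1, so ratios against 1 are lower bounds. All 6 value columns were mapped to samples by their labels.

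The 10042 genes that reached 4 rpkm in some library were fitted as log2(rpkm + 1) with limma 3.58.1 in R 4.3.3 (lmFit, eBayes with a trend), using all 6 libraries and no block. Tests were two-sided with Benjamini-Hochberg adjustment over all genes tested, called at 0.05. A fold change on this scale understates that of low genes. The fit was also run on simulated data, for R270H/R270H against +/+ only, with the same spread of a gene in all 6 libraries. Those data held neither the wider flox/flox gap nor its link to transcript length. The run therefore cannot show how the fit behaves under them. Python 3.11.15 with numpy 2.4.6, pandas 2.3.3 and matplotlib 3.10.9 served for the rest. Gene positions and promoters are those of RefSeq on GRCm38.p6. Transcript lengths and overlapping genes are those of GENCODE M21.

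Depth was estimated from genes under 300 bases on a grid from 20 to 70 M reads. The 9 genes, the 8 lists and the tests were chosen with earlier results of these data known. All 9 genes were named, and of the lists those called, plus Stat3, Tyk2, Jak2, Ifnar2, Ifngr2, Irf3, Irf7, Mavs, Usp18 and Socs1. Some genes of the lists are not reported here by name. Where a value lies outside this rule it was chosen after seeing the data. Marker lists named epithelial, immune, fibroblast and endothelial genes. Alternatives were other filters, pseudocounts, scaling, weights, sample sets and blocks.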

Additional observations from a re-analysis of the deposited data

How the results depend on the processing

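Over 21 fold changes (7 genes in 3 comparisons) and 15 alternatives, 252 of the 315 values kept direction and side of the threshold, 34 lost the call, 23 gained it and 6 changed sign. In every fit with the main filter 7 of the 9 genes and 54 other pathway genes were tested. The numbers of the 9 genes called in R270H/R270H against +/+, flox/flox against +/+ and R270H/R270H against flox/flox organoids were 1, 1 and 4, and those of the other pathway genes were 9, 4 and 17. A fit without a trend, scaling by median ratios and a smaller pseudocount (0.1) kept these 6 counts within 1.5 times. All 9 genes were tested with the filter lowered to above 1 rpkm, with 68 others, and without a filter, with 91 others. With the lowered filter 2 of the 9 genes, with Dhx58 added, and 16 other pathway genes were called in the first comparison, as were 15.4% of all genes. Without a filter, where 23760 genes at the floor entered the fit, Irf1 was not called in flox/flox against +/+ organoids (0 genes), and the other pathway genes called were 3, 0 and 6 (1.17%, 0.202% and 2.09% of all genes). With weights by genotype the counts were 5, 0 and 2 for the 9 genes and 32, 0 and 3 for the others, while 59.6%, 1.49% and 5.32% of all genes were called. With only the 2 genotypes compared they were 5, 0 and 1, and 30, 0 and 2, with 57%, 0.468% and 3.76% of all genes called. In the fit of all libraries these shares were 12.2%, 11.3% and 24.6%. Where the count in flox/flox against +/+ organoids was 0, limma gave an unadjusted p under 0.05 for 2, 0 and 1 of the 9 genes without a filter, with weights and with 2 genotypes, and for 20, 5 and 12 of the others.

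With 1 library left out at a time, the counts ran from 0 to 5, 0 to 5 and 0 to 7 for the 9 genes, and from 0 to 30, 0 to 32 and 2 to 38 for the others. The remaining library of that genotype is then assumed to vary like the other genotypes. The sign changes were Ifngr1 in R270H/R270H against +/+ organoids (0.01 without +/+ replicate 1 and -0.07 without replicate 2) and 5 in flox/flox against +/+ organoids: Ddx58 (-0.02 without +/+ replicate 2, and 0.13 and -0.09 without flox/flox replicate 1 and 2), Jak1 (0.00 without +/+ replicate 1, and 0.26 and -0.33 without flox/flox replicate 1 and 2) and Stat2 (0.15 and -0.27 without flox/flox replicate 1 and 2). Apart from the effect of fewer libraries, the cause of these shifts was not tested.

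The replicate numbers come from the titles of cultures from different mice. The correlations of same-numbered deviations were 0.117, -0.291 and -0.196, so the numbers do not pair the cultures. With the number as a replicate block, 1, 0 and 3 of the 9 genes and 6, 0 and 9 of the others were called, against 5.48%, 2.79% and 11.5% of all genes (in the second comparison 1 and 12 had an unadjusted p under 0.05). With the R270H/R270H numbers exchanged, an alternative chosen after seeing the data, 1, 1 and 4 of the 9 genes and 7, 3 and 13 of the others were called. The shares of all genes called were then 9.37%, 8.69% and 22.7%.

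The limits are 2 cultures a genotype, a floor that hides levels below 1 rpkm, and a length-dependent gap between the 2 flox/flox libraries. In libraries above the floor, counting error is at most 7.08% for the 9 genes and covers sampling of reads alone. This is at the 199 reads estimated for Irf9 in flox/flox replicate 1 and for Dhx58 in R270H/R270H organoids. It was not estimated for Dhx58 in the libraries at the floor.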

Other observations

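The 5 genes whose profile over the 6 libraries was nearest to that of Irf9, by Euclidean distance between centred log2(rpkm + 1) values, were Ppap2b (0.17), Pde3b (0.20), Smad7 (0.21), Znrf3 (0.21) and Nrbp2 (0.22). Irf9 was taken because it varied most among the 7 genes tested. Smad7, an inhibitor of TGF-beta signalling, read 2.95 and 2.8 rpkm in +/+, 1.17 and 2.49 in flox/flox and 7.37 and 7.83 in R270H/R270H organoids. Znrf3, an inhibitor of Wnt signalling, read 11.6 and 10.9 rpkm in +/+, 5.73 and 9.82 in flox/flox and 25.1 and 23.6 in R270H/R270H organoids. Both share with Irf9 the low value in flox/flox replicate 1, as the choice of genes near its profile leads to. Flox/flox replicate 1 differed from replicate 2 by -0.89 for Irf9, whose longest coding transcript has 2959 bases. The median of all genes of 2000 to 3000 bases was 0.11. The source of the low Irf9 value was not tested.

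Several pathway genes lay below or near the main filter, and the following were chosen after their values were seen. Irf5, a factor acting downstream of Toll-like receptors, was at the floor in both +/+ libraries, read 1.03 and 1.55 rpkm in flox/flox and 3.67 and 3.82 in R270H/R270H organoids. With the filter lowered to above 1 rpkm it was called higher against +/+ (adjusted p = 0.00632) and flox/flox organoids (adjusted p = 0.00823), though it enters that fit only through libraries in which it is high. Xaf1, an interferon-induced gene linked to cell death, was at the floor in both +/+ libraries, read 1 and 1.13 rpkm in flox/flox and 2.5 and 2.72 in R270H/R270H organoids. Tap1, which carries peptides to class I antigen-presenting molecules, went the other way against +/+ organoids only. It read 2.65 and 3.07 rpkm in +/+, 1 and 1.09 in flox/flox and 1.30 and 1.88 in R270H/R270H organoids. Both R270H/R270H libraries thus lay below the +/+ and above the flox/flox libraries. The chemokine Cxcl10, which passed the main filter, read 1 and 1 rpkm in +/+, 12.3 and 3.34 in flox/flox and 1.47 and 1.03 in R270H/R270H organoids, so it was highest in both flox/flox libraries, as Irf1 was, but with a wide gap between them, and it was not called in any comparison.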
